A study of Mus musculus with 22 samples.

Results

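The miR-181 family comprises 4 mouse miRNAs, mmu-miR-181a, mmu-miR-181b, mmu-miR-181c and mmu-miR-181d, and these were followed across fallopian tubes (FT), tumors and plasma of a mouse model of fallopian tube-derived cancer. They were taken by name, without the star strands, from the 566 mouse miRNA probes of the NanoString nCounter miRNA assay v1.5, which counts fluorescent barcodes bound to each miRNA. The family fills 3 of these probes, because miR-181b and miR-181d share 1 probe and cannot be told apart. That probe is written miR-181b+miR-181d here. Together the 566 probes name 577 miRNAs.

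Tissue came from 5 uninduced control fallopian tubes (CT), 5 tubes induced with doxycycline (FT) and 5 metastatic tumors (M), and plasma from 3 control mice (CS) and 4 tumor-bearing mice (TS). The model uses a Pax8-Cre system that is switched on by doxycycline, so recombination occurs in cells in which Pax8 is active, the secretory epithelium of the tube among them. The CT mice carried floxed Brca1 (CT1 to CT3) or Brca2 (CT4 and CT5) alleles that were not recombined, homozygous except in CT2 and CT5. The FT mice were Brca2 -/+ (FT1, FT3, FT5), Brca1 -/- (FT2) or Brca2 -/- (FT4). The M samples were Brca2 -/- (M1, M3), Brca1 -/+ (M2, M6) or Brca2 -/+ (M4). All mice carried further engineered alleles, which are not described here. M1 to M4 were labelled peritoneal metastasis, and M6 was labelled ovarian tumor. The plasma samples TS1 to TS4 belong, in order, to the FT2 to FT5 animals, and CS2 to CS4 to the CT2 to CT4 animals. Ages were not given in the sources used here. The p-values below measure the spread between these samples.

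miRNAs are short RNAs that guide Argonaute proteins to messenger RNAs, mostly through bases 2 to 8 of the miRNA, the seed. Members of a family share the seed and can therefore bind overlapping sets of messages. miR-181a is best known from the immune system, where it tunes T cell receptor signalling in the thymus and promotes B cell development, and in ovarian cancer it has been linked to epithelial-to-mesenchymal transition (EMT), the loss of epithelial character that accompanies invasion.

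The mature 5′ arms of the 4 members, from RefSeq on GRCm38.p6, are shown because they differ from each other in few positions, which bears on what each probe can count. The seed is in capitals.
mmu-miR-181a-5p: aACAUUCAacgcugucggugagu
mmu-miR-181b-5p: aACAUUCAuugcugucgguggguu
mmu-miR-181c-5p: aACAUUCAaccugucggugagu
mmu-miR-181d-5p: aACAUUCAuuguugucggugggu

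All 4 names matched a RefSeq entry. The seed was carried by 4 of 1679 distinct mature mouse miRNAs in that table, the members themselves, so no other miRNA of the panel shared it. Aligned from the 5′ end, with positions counted from the first base of the first-named miRNA, miR-181a and miR-181c had 22 identical bases, 0 substitutions and 1 gap. miR-181a and miR-181b had 20 identical bases with the substitutions A9U, C10U and A21G and 1 gap. miR-181b and miR-181d, the pair on the shared probe, differed by C12U and 1 gap, with 22 identical bases. How far the miR-181a probe also counts miR-181c, and the reverse, was not tested.

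The family is encoded in 3 clusters of a pair each. On the plus strand of chromosome 1, miR-181a (Mir181a-1) lies at chr1:137966468-137966490 and miR-181b (Mir181b-1) at chr1:137966650-137966673, with 159 bases between the mature 5′ arms. A second copy of the pair (Mir181a-2 and Mir181b-2) lies on the plus strand of chromosome 2, at chr2:38852741-38852763 and chr2:38853845-38853868, 1081 bases apart. miR-181c (chr8:84178924-84178945) and miR-181d (chr8:84178759-84178781) lie on the minus strand of chromosome 8 and are 142 bases apart. The shared probe thus adds a product of the chromosome 1 and 2 clusters to one of the chromosome 8 cluster, and the assay cannot assign miR-181a to either of its 2 copies.

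Total counts on mouse miRNAs ranged from 70164 to 598321 per tissue sample (100 ng RNA) and from 18350 to 269005 per plasma sample (10 ng). Deposited counts were divided by a scale, the geometric mean of the top 100 miRNAs for tissue or the top 30 for plasma, giving normalized counts. The median of this scale was 469.8 in the CT samples, 233.9 in FT and 192.4 in M. The counts of M1, M3 and M4 were thus scaled up, as were those of CT1, CT5, FT2, FT3 and FT4. The detection level of a sample was the mean plus 2 SD of its 8 negative hybridization controls, and it lay at 18.3 to 67.7 counts for tissue and 25.0 to 48.4 for plasma.

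In tissue, miR-181a made up most of the family's signal. Its deposited counts were 209 to 1248 in CT, 132 to 2020 in FT and 590 to 1461 in M, above the detection level in all 15 tissue samples and by a factor of at least 4.80. In normalized counts it ranked 40 of 566 by mean in CT, 34 in FT and 28 in M. It contributed a median of 91.2% of the family's counts in CT, 94.6% in FT and 97.4% in M, with the lowest tissue share in FT3 (74.6%). In plasma the share was 34.5% (TS3) to 91.5% (TS4). Every family probe was under the detection level in CS2, CS3, TS2 and TS3, so the shares there are not read.

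The other 2 probes were faint. miR-181b+miR-181d gave 8 to 53 counts in tissue and passed the detection level in 1 of 15 tissue samples, a CT sample. miR-181c gave 8 to 78 counts and passed it in 4 of 5 CT, 3 of 5 FT and 2 of 5 M samples. The background of the assay reaches such counts, and a difference in miR-181b+miR-181d was read as not detectable at this depth.

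**Figure D1:**
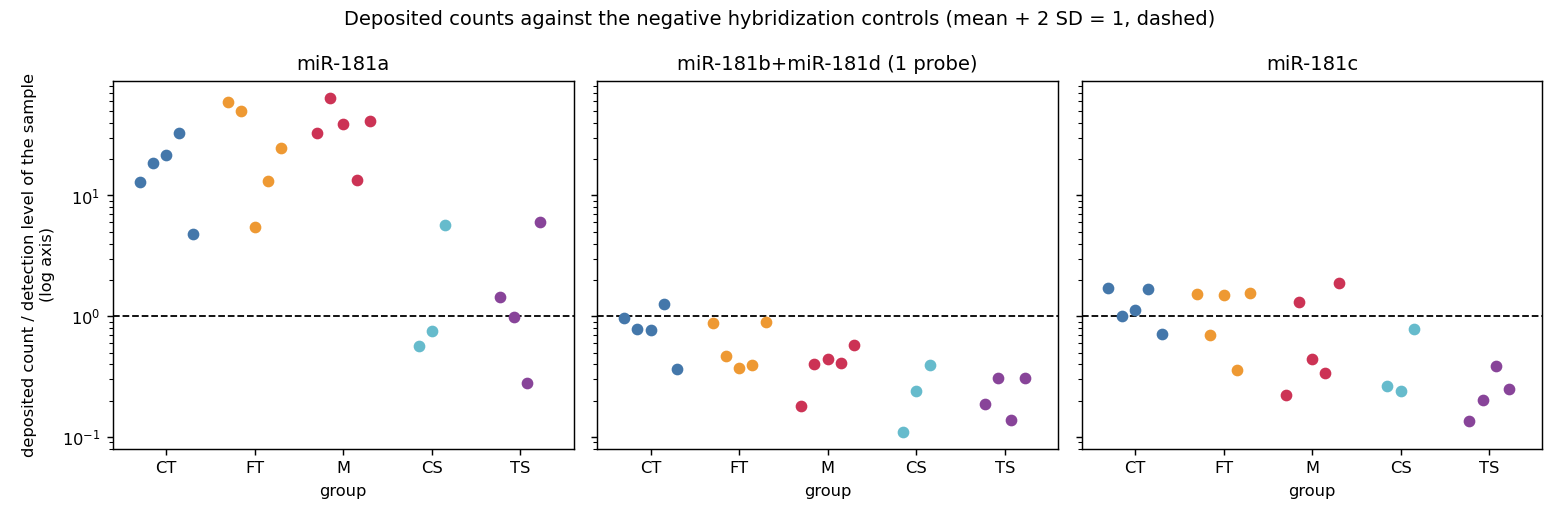
Deposited count of each family probe divided by the detection level of the same sample (log axis), by group, 1 point per sample; the dashed line at 1 is the detection level. miR-181a lies at 4.80 times the level or more in every tissue sample, whereas miR-181b+miR-181d passes it in 1 tissue sample and neither faint probe passes it in plasma.

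To ask how the family differed between control tubes and metastatic tumors, M was compared with CT. The normalized count of miR-181a was 393.4, 817.8, 781.1, 749.2 and 489.6 in CT1 to CT5. In M1, M2, M3, M4 and M6 it was 3908, 1185, 1951, 1426 and 977.9. The 5 M samples therefore all lay above the 5 CT samples, with M1 highest and M6 nearest to the controls. Means were 646.2 ± 191.5 (SD, n = 5) in CT and 1889 ± 1186 (SD, n = 5) in M. The log2 fold change was 1.55 ± 0.50 (SE), a 2.92-fold rise, with an adjusted p of 0.0450 by edgeR's quasi-likelihood test, and the two-sided exact permutation test gave p = 0.00794, the smallest p that 252 splits allow. Of all miRNAs, 14.5% (82 of 566) passed the same threshold, 58 higher and 24 lower in M, with a median of 0.29 (log2 fold change) over the whole panel. Every M sample lay above every CT sample for 7.42% of miRNAs (42 of 566).

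The rise of miR-181a was close to the threshold and depended on the scaling. Before scaling the counts of M and CT overlapped, the adjusted p was 0.0738 with TMM and 0.0795 with DESeq2 size factors, and leaving out M1, M3 or any one of the 5 CT samples gave adjusted p-values from 0.0637 to 0.131, with a fold change of 1.10 (log2) without M1. With the 4 housekeeping mRNA probes of the panel as the scale, the log2 fold change was -1.31 and the median over all miRNAs -2.64, as the geometric mean of these mRNAs was 253.1 to 1269 counts in CT and 1598 to 6690 in M.

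**Figure D2:**
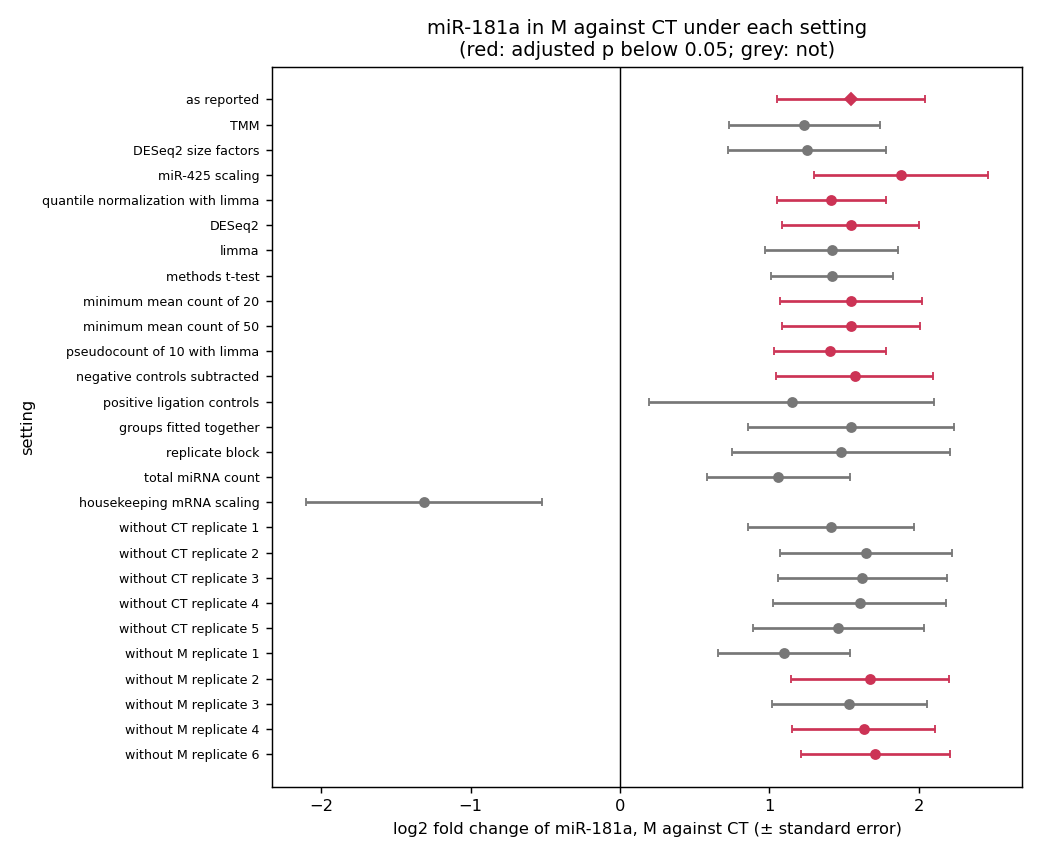
Log2 fold change of miR-181a in M against CT with its standard error (horizontal axis) under each processing setting (vertical axis); red marks an adjusted p below 0.05 and grey one above it. The value as reported is 1.55, and only scaling to housekeeping mRNAs puts it below 0, at -1.31.

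Neither faint probe passed the threshold in M. miR-181b+miR-181d had normalized counts of 29.5, 34.7, 27.7, 29.0 and 37.5 in CT1 to CT5 and of 21.4, 7.4, 22.0, 43.5 and 13.6 in M1, M2, M3, M4 and M6. M4 was the highest of the 10 samples and the other 4 M samples lay below all CT samples. The log2 fold change was -0.62 ± 0.44 (SE, adjusted p = 0.342), with a 95% interval from -1.55 to 0.31. miR-181c had normalized counts of 52.4, 44.6, 40.6, 38.7 and 72.6 in CT1 to CT5 and of 26.8, 24.2, 22.0, 36.3 and 44.4 in the M samples in the same order. All M values were below the CT mean, and only M6 overlapped the CT range. The log2 fold change was -0.66 ± 0.37 (SE, adjusted p = 0.241), with an interval from -1.44 to 0.12; the two-sided exact permutation test of this probe alone gave an unadjusted p of 0.0317. With other scalings each of the 2 probes passed the threshold as lower in M, miR-181b+miR-181d at -0.83 with TMM and miR-181c at -0.95 after quantile normalization.

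**Figure D3:**
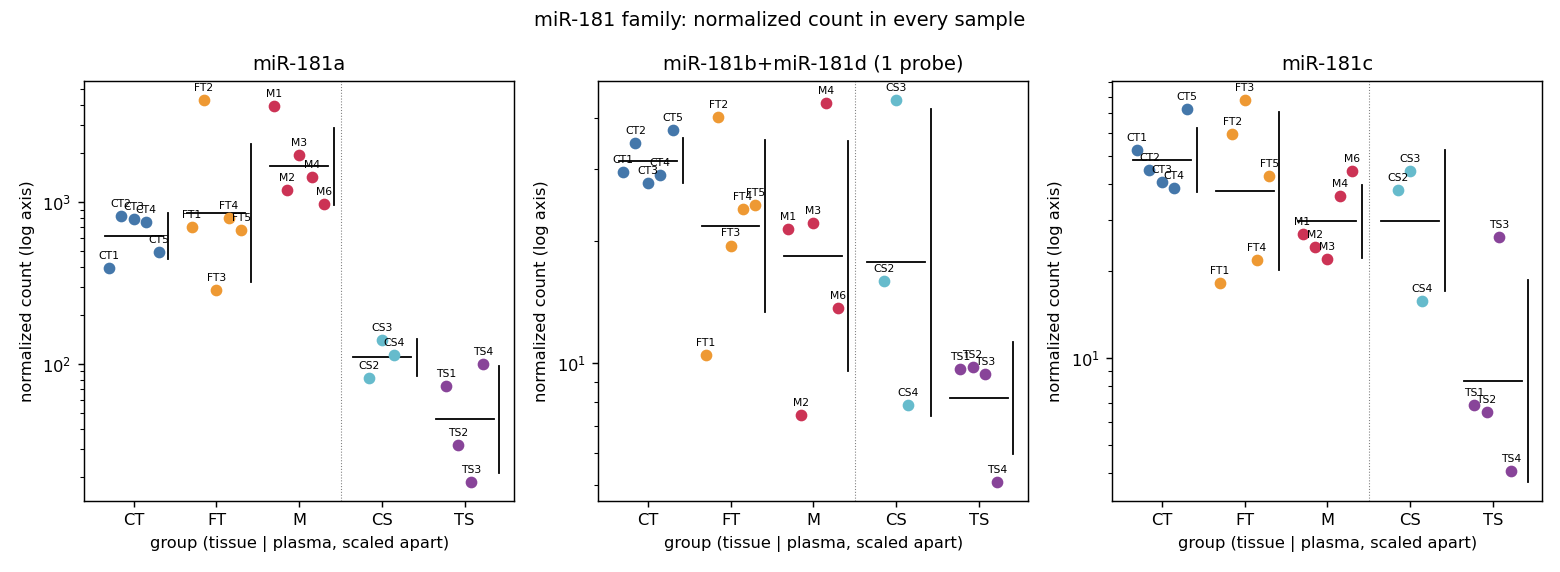
Normalized count (log axis) of miR-181a, miR-181b+miR-181d and miR-181c in every sample, by group; the horizontal bar is the mean and the vertical bar ± 1 SD of the log2 values, and tissue and plasma were scaled apart. For miR-181a all 5 M samples (977.9 to 3908) lie above all 5 CT samples (393.4 to 817.8), while for the other 2 probes the groups overlap.

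The members were also set against each other in an edgeR fit with the count of miR-181a as the scale. This comparison does not measure the balance of the family in M, because the faint probes are at or near background there. The counts of miR-181b+miR-181d were 8, 8, 8, 18 and 20 in M1, M2, M3, M4 and M6, and the mean negative control was 14.9, 7.75, 9.50, 20.4 and 15.3 in the same samples. miR-181c was under the detection level in 3 of 5 M samples. In that fit miR-181b+miR-181d stood at -2.01 ± 0.55 (log2, SE, adjusted p = 0.00379) and miR-181c at -1.96 ± 0.56 (SE, adjusted p = 0.00539) in M against CT. Of 565 other miRNAs, 46.4% passed (21 higher and 241 lower) with a median of -1.14, as the rise of miR-181a itself sets this scale, and nothing is read from these values about the faint members.

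The doxycycline-induced tubes were compared with CT in the same way. miR-181a had normalized counts of 705.0, 4264, 285.3, 801.2 and 672.0 in FT1 to FT5. FT2 stood far above the rest, FT3 was below all CT samples, and the other 3 lay within the CT range. The mean was 1345 ± 1643 (SD, n = 5) and the log2 fold change 1.06 ± 0.65 (SE, adjusted p = 0.759), with a 95% interval from -0.29 to 2.40. Without FT2 the log2 fold change was -0.07. In this comparison 0.177% of miRNAs (1 of 566) passed the threshold.

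Neither faint probe passed in FT. miR-181b+miR-181d was at 10.5, 40.3, 19.4, 23.9 and 24.5 normalized counts in FT1 to FT5, with 4 of 5 below all CT samples and a log2 fold change of -0.45 ± 0.45 (SE, adjusted p = 0.759). miR-181c was at 18.1, 59.2, 77.8, 21.9 and 42.5, on both sides of the CT samples, with a log2 fold change of -0.19 ± 0.47 (SE, adjusted p = 0.872). Relative to miR-181a their log2 fold changes in FT were -0.84 ± 0.80 and -0.20 ± 0.78 (SE, both adjusted p = 0.9999), in a fit in which 0.177% of 565 miRNAs passed.

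M and FT were also compared directly; some of these tissues came from the same mice, which the sources used here do not name, so the fit treated them as separate. The log2 fold change of M against FT was 0.49 ± 0.84 (SE) for miR-181a, -0.15 ± 0.60 for miR-181b+miR-181d and -0.48 ± 0.58 for miR-181c, each with an adjusted p of 0.993, and 1.59% of miRNAs (9 of 566) passed. The interval for miR-181a ran from -1.22 to 2.20. Relative to miR-181a, miR-181b+miR-181d stood at -1.16 ± 0.83 (adjusted p = 0.336) and miR-181c at -1.79 ± 0.84 (SE, adjusted p = 0.239), and 3.36% of 565 miRNAs passed.

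**Figure D4:**
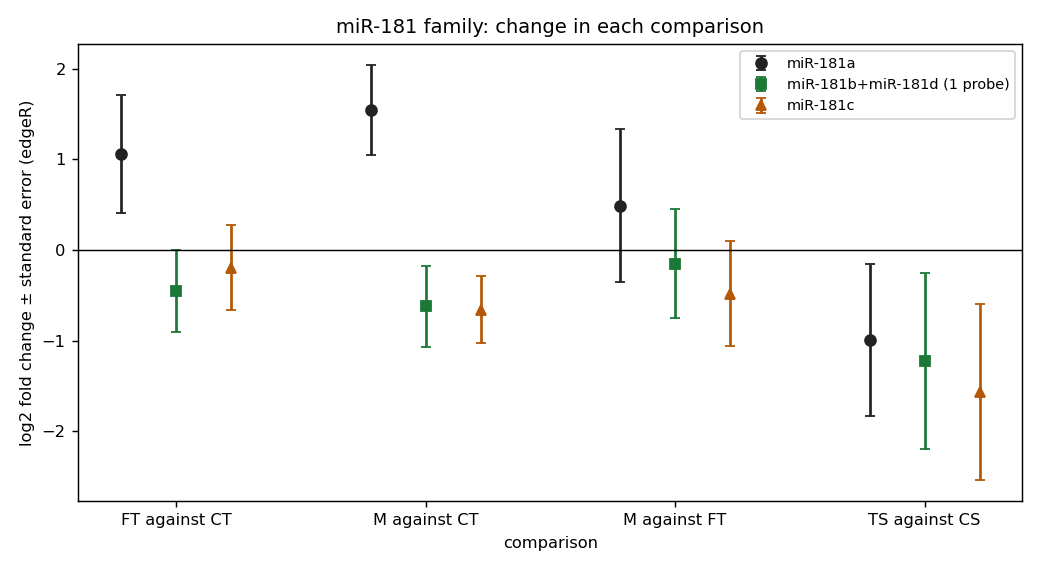
Log2 fold change with its standard error (edgeR) of the 3 family probes in the 4 comparisons. miR-181a in M against CT, at 1.55, is the one value that passed the threshold; in plasma all 3 lie below 0 without passing.

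On the normalized scale, the samples without a wild-type copy of the Brca gene had the highest miR-181a within FT and within M. These were FT2 (4264, Brca1 -/-) and FT4 (801.2, Brca2 -/-) against 285.3 to 705.0 in the 3 heterozygous FT samples, and M1 (3908) and M3 (1951), both Brca2 -/-, against 977.9 to 1426 in the 3 heterozygous M samples. The order was noticed after the values were seen and has 2 samples against 3 in each tissue, so it is given without a test. It depended on the scale. Per total miRNA count FT4 ranked 4 of 5 in FT while FT2 stayed the highest in FT and M1 and M3 in M. Per positive ligation control FT2 ranked 2 and FT4 3 of 5 in FT, behind the heterozygous FT1. On that scale M3 ranked 1 and M1 ranked 5 of 5 in M. Per housekeeping mRNA FT2 ranked 3 and FT4 4 in FT, behind the heterozygous FT5 and FT3, and M1 ranked 1 and M3 3 in M. In M the further engineered alleles split the samples in the same way, so their part cannot be told apart from that of the Brca state.

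In plasma the family was near the detection level. The deposited counts of miR-181a were 26, 19 and 276 in CS2 to CS4 and 53, 29, 10 and 195 in TS1 to TS4, and they passed the level in 1 of 3 CS (CS4) and 2 of 4 TS samples (TS1 and TS4). In normalized counts this was 82.6, 140.4 and 114.4 in CS and 73.0, 31.5, 18.8 and 99.5 in TS. The scale was 304.4, 130.8 and 2331 in CS2 to CS4 and 514.8 to 1895 in TS. CS3, with 19 deposited counts and under its detection level, thus had the highest normalized value in CS. The means were 112.5 ± 29.0 (SD, n = 3) in CS and 55.7 ± 37.3 (SD, n = 4) in TS, and the groups overlapped, TS4 lying above CS2. The log2 fold change was -0.99 ± 0.84 (SE, adjusted p = 0.570), with an interval from -2.63 to 0.65, against a median of -0.89 over all miRNAs.

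miR-181b+miR-181d and miR-181c passed the detection level in none of the 7 plasma samples. Their deposited counts were 5 to 19 and 5 to 38, so that a difference was not detectable at this depth. The log2 fold changes were -1.22 ± 0.97 and -1.57 ± 0.97 (SE, both adjusted p = 0.570). By edgeR 0.0% of miRNAs (0 of 566) passed in plasma, with 42 at an unadjusted p under 0.05, and DESeq2 and limma also called 0. Relative to miR-181a the 2 probes stood at 0.32 ± 1.41 and 0.40 ± 1.48 (SE, both adjusted p = 0.965), again with 0.0% of 565 passing by edgeR and 34 at an unadjusted p under 0.05.

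The 7 mice that gave both tissue and plasma allowed the levels to be set side by side. The mouse of FT2, the tube with the most miR-181a (4264), had 73.0 normalized counts in plasma (TS1), while the mouse of FT5, at 672.0 in the tube, had the highest TS value, 99.5 (TS4). The control mouse of CT4, at 749.2 in the tube, had 114.4 in plasma (CS4). In the other 4 plasma samples miR-181a was under the detection level, so no order over the 7 mice can be read, and plasma and tissue were scaled apart.

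Whether the change in tissue differed from that in plasma was tested as a contrast in 1 fit of all 5 groups, which did not take the shared mice into account. For miR-181a the change in M minus that in plasma was 2.54 ± 1.04 (log2, SE, adjusted p = 0.179 by edgeR). The median of this contrast over all miRNAs was 1.09, and 0.53% of them (3 of 566) passed. The change in FT minus that in plasma was 2.05 ± 1.04 (SE, adjusted p = 0.497) against a median of 0.98, where edgeR passed 0.0% of miRNAs, with 55 at an unadjusted p under 0.05. For the faint probes the 4 contrasts lay between 0.56 and 1.37, with adjusted p-values from 0.517 to 0.707.

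Because miR-181a acts in lymphocytes, 10 other miRNAs with roles in lymphocyte and myeloid development were examined on the same M against CT fit. Of these, 4 rose and 0 fell, with a median log2 fold change of 1.09 against 0.29 over all miRNAs. Over the whole panel 10.2% of miRNAs passed as higher in M and 4.24% as lower. The risers were miR-223, a myeloid miRNA (3.59 ± 0.71, SE), miR-146a, which dampens NF-κB signalling (2.24 ± 0.46), and the miR-17 family probes miR-106a+miR-17 (2.10 ± 0.51) and miR-20a+miR-20b (2.12 ± 0.48), with adjusted p-values from 0.00205 to 0.00952. miR-150, of mature lymphocytes, stood at 0.87 ± 0.63 (SE, adjusted p = 0.349), and miR-155, induced in activated lymphocytes, had normalized counts under 3 in every CT and M sample. miR-223 in M4, at 128.1 normalized counts, lay within the CT range of 67.3 to 168.4. miR-19b stood at 0.14 ± 0.39 (SE, adjusted p = 0.823), and miR-92a was at 2.23 to 19.3 normalized counts in CT and M. The 2 arms of miR-142 did not pass, at 0.93 ± 0.54 (miR-142-3p) and 1.24 ± 0.64 (miR-142-5p). The list was chosen with earlier results of these data known, and no test of it as a set was run.

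miR-181a has also been linked to EMT. Of 6 miRNAs known to promote EMT or invasion, 2 passed as higher in M and 0 as lower, with a median of 0.66. Those that passed were miR-21 (2.30 ± 0.51, SE, adjusted p = 0.00472) and miR-9 (6.24 ± 1.65, adjusted p = 0.0158). miR-10b went the other way, at -0.83 ± 0.47 (SE, edgeR adjusted p = 0.241). miR-221 and miR-222 stood at 0.32 ± 0.40 and 0.80 ± 0.44 (SE) without passing. miR-155, with a count of 1 in every CT and M sample, stood at 0.52 ± 0.69 (SE). The value of miR-9 rested on M4, at 4425 normalized counts against 10.2 to 29.4 in the other M samples and 1.49 to 28.1 in CT, and without M4 it was 0.42 ± 0.65 (SE, adjusted p = 0.663). Of 6 miRNAs that maintain the epithelial state, the miR-200 family and miR-205, miR-205 passed as higher (4.20 ± 1.23, SE, adjusted p = 0.0288) and miR-141 fell by 2.22 ± 0.64 (SE, adjusted p = 0.0257). miR-205 was at 42.8, 1483, 27.6, 299.7 and 13448 in M1, M2, M3, M4 and M6 against 138.8 to 210.8 in CT, so that M1 and M3 lay below all CT samples, and without M6 its value was 1.48 ± 0.81 (SE, adjusted p = 0.211). miR-141 missed the threshold without CT1, CT3 or CT4, with adjusted p-values from 0.0517 to 0.0540. The calls in these 2 lists, 2 of 6 each, stand beside the panel share of 14.5%, and nothing is read from them about the lists. The other 4, miR-200a, miR-200b, miR-200c and miR-429, had log2 fold changes from -1.43 to 0.66. In M these miRNAs spread widely, miR-200c from 46.8 to 18142 normalized counts against 4073 to 4935 in CT.

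The tissues differed in cell content as well, and in bulk samples fewer cells of a type cannot be told apart from less RNA per cell. The summed normalized count of 5 epithelial markers (miR-141, miR-429, miR-200a, miR-200b and miR-200c) was 9285 to 11038 in CT. In M1, M2, M3, M4 and M6 it was 545.7, 2235, 242.5, 42010 and 8891. M1 and M3, the M samples with the most miR-181a, thus had the lowest epithelial sums in M. Of the M samples, 4 of 5 were below all CT samples. In FT the order was otherwise. FT2, with the most miR-181a of all tissue samples (4264), summed to 18151, above all CT samples. FT4, next in FT (801.2), had the highest sum in FT (45391.5), and FT3, with the least miR-181a (285.3), the lowest (8247). Of the 5 markers, only miR-200b was above the detection level in M1 (132 counts against a level of 44.7) and in M3 (45 against 18.3). Of the 5, 1 fell (miR-141).

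The sum of 5 leukocyte markers (miR-223, miR-155, miR-150 and the 2 arms of miR-142) was 593.0 to 1164 in CT and 2654, 2723, 6301, 966.7 and 1870 in M1, M2, M3, M4 and M6, above all CT samples in 4 of 5. Of these markers 1 rose (miR-223). The counts of markers that passed, here and below, stand beside panel shares of 10.2% higher and 4.24% lower, and nothing is read from a single call in so short a list. The endothelial pair (miR-126-3p, miR-126-5p) summed to 4224 to 6683 in CT and 7887 to 19897 in M, nearly all of it miR-126-3p, which rose (1.66 ± 0.43, SE, adjusted p = 0.0155). Without CT1 or CT4 miR-126-3p missed the threshold, with edgeR adjusted p-values of 0.0540 and 0.0516. miR-126-5p stood at -0.83 ± 0.50 (SE, adjusted p = 0.274). Ciliated cell markers summed to 311.9 to 3767 in CT and 27.9 to 88.3 in M (4 of 5 fell). The ciliated marker that did not fall, miR-449b, stood at 0.76 ± 0.60 (SE, edgeR adjusted p = 0.389). Smooth muscle and stromal markers summed to 4713 to 13280 in CT and 626.5 to 3821 in M (3 of 5 fell). Of these, miR-1 and miR-145 were close to the threshold (edgeR adjusted p = 0.0450 and 0.0419). Leaving out 1 sample raised these values to as much as 0.0970 (miR-1, without CT3) and 0.122 (miR-145, without CT2). Erythrocyte markers summed to 2881 to 4771 in CT and 2233 to 14358 in M (1 of 4 rose), and liver markers to 66.2 to 93.7 and 64.2 to 587.3 (1 of 3 rose). The lowest deposited count of any probe was 1, so no marker was at 0, and a count of 1 does not show that a marker was present. miR-155 had a count of 1 in every CT and M sample, and miR-34c in every M sample and in CT2 and CT5. In CT1, CT3 and CT4 miR-34c had 2241, 809 and 1995 counts. The part of these differences in the rise of miR-181a was not tested.

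The miRNAs whose log2 normalized counts most resembled those of each member over the 15 tissue samples were found among 141 with a mean count of at least 50. The points share their scaling factors and groups, so the correlations are descriptions. For miR-181a they were miR-1198 (Pearson's r = 0.917), miR-2140 (r = 0.914) and miR-674 (r = 0.901). All 3 were higher in M than in CT, by log2 fold changes of 2.79 ± 0.55, 4.47 ± 0.70 and 1.84 ± 0.58 (SE, adjusted p = 0.00203, 0.000254 and 0.0429). Their CT counts were low, from 9 to 61.

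For miR-181b+miR-181d they were miR-125a-3p (r = 0.709), miR-1966 (r = 0.645) and miR-142-5p (r = 0.567), and for miR-181c miR-96 (r = 0.745), miR-27a (r = 0.674) and miR-29a (r = 0.672). miR-29a was the one of these 6 that passed in M, where it fell by 1.43 ± 0.42 (log2, SE, adjusted p = 0.0288). Between members, r was 0.081 for miR-181a with miR-181b+miR-181d, -0.357 for miR-181a with miR-181c and 0.520 for the faint pair. The values within the family rest on 2 probes near the detection level, and the other miRNAs were picked for their correlation, so the 2 kinds of value are not compared.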

How the data were processed

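miRNA was profiled in 22 samples. The authors deposited whole-number barcode counts for 626 probes, 566 of them mouse miRNAs. Their nSolver normalization was not carried by the counts, and any correction before deposit is not stated. All columns matched a sample. M5 and CS1 were not analysed here. Engineered alleles other than those of Brca1 and Brca2 are not reported here. TS samples are labelled serum in one field and plasma in others.

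Counts were scaled to the geometric mean of the top 100 (tissue) or top 30 (plasma) miRNAs, and groups compared pairwise with edgeR 4.0.16 (quasi-likelihood, all 566 miRNAs, Benjamini-Hochberg, threshold 0.05) in R 4.3.3, with limma 3.58.1 and DESeq2 1.42.0 as alternatives. Exact permutation tests went through every split of the samples in Python 3.11.15. The fits were also run on simulated data with planted changes larger than that of miR-181a in M, so the simulation does not bear on that call. The SE of edgeR values was derived from its quasi-likelihood statistic. Intervals of fold changes are 95% intervals from this SE and the degrees of freedom that edgeR's p-value implies, with scipy 1.17.1.

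Named are the members, the 3 miRNAs most like each, and list members from general knowledge. Members and lists were chosen with earlier results of these data known. Total-count and housekeeping scaling were added after seeing the data. Sequences are from RefSeq (GRCm38.p6), where the panel name was matched to the 5p arm.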

Additional observations from a re-analysis of the deposited data

Results flagged for a closer look

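The normalized count of miR-181a in FT2, 4264, stood far above the other 4 FT samples (285.3 to 801.2). The gap was beyond Dixon's 95% limit on the count scale and within it on the log2 scale. Before scaling FT2 had 1800 deposited counts and FT1 had 2020, so the place of FT2 above FT1 arose in the scaling.

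In plasma, miR-181b+miR-181d in TS4 (5.10 normalized counts) lay below the other 3 TS samples (9.39 to 9.79), on both scales. Its deposited count was the highest of the TS samples, at 10 against 7, 9 and 5 in TS1 to TS3. The low value thus arose in the scaling, which both scales share. miR-181c in TS3 (26.3) lay above the other 3 (4.08 to 6.89) on the count scale. All of these plasma counts were below the detection level. Chance flags about 1 in 20 groups tested in this way.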

How the results depend on the processing

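Of 395 recomputed member values, 345 kept their direction and their side of the threshold, 16 lost a call, 8 gained one and 26 changed sign. The rise of miR-181a in M kept its call in 10 of 26 alternatives (DESeq2, miR-425 and quantile scaling and minimum mean counts among them). It lost it with TMM (log2 fold change 1.24), DESeq2 size factors (1.25), limma (1.42), scaling to positive ligation controls (1.15), the groups fitted together (1.55) and total miRNA count (1.06). The replicate block (1.48, adjusted p = 0.161) and the methods' t-test (1.42) lost the call too. The t-test was given a Benjamini-Hochberg adjustment throughout, which the methods do not name. Housekeeping mRNA scaling turned the value of miR-181a to -1.31. Each sample left out in turn gave 1.10 to 1.71. In M, miR-181b+miR-181d passed as lower with TMM (-0.83), DESeq2 size factors (-0.81), negative controls subtracted (-2.36) and housekeeping scaling (-3.82), and miR-181c with quantile normalization (-0.95), total count (-1.14) and housekeeping scaling (-3.59). Relative to miR-181a, miR-181c in M missed the threshold with negative controls subtracted (-2.27, adjusted p = 0.0544). The cause was not tested. The median over all miRNAs in M moved from 0.29 to 0.66 with miR-425 scaling, to -0.01 with quantile normalization and to -2.64 with housekeeping scaling.

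The sign changes were in values that passed no threshold, except miR-181a in M above. Housekeeping scaling gave miR-181a -0.62 in FT against CT and -0.69 in M against FT. miR-425 scaling gave miR-181b+miR-181d 0.022 and miR-181c 0.22 in FT, and miR-181a 0.019 in plasma. In plasma miR-181a was at 0.069 with DESeq2 size factors and 0.23 with ligation controls, and miR-181b+miR-181d at 0.0040 with quantile normalization and 0.17 with ligation controls. miR-181c relative to miR-181a in plasma was at -0.57 with limma, -0.27 with a pseudocount of 10, -1.05 with negatives subtracted and -0.34 with the block. Leaving out samples in turn gave miR-181a in FT -0.069 (without FT2) to 1.32, miR-181c in FT -0.50 to 0.022 (without FT1), miR-181b+miR-181d in M against FT -0.58 to 0.11 (without FT2; 0.09 without M2), and, relative to miR-181a, miR-181c in FT -1.40 to 0.081, miR-181b+miR-181d in plasma -0.21 (without TS3) to 0.88 and miR-181c in plasma -1.48 (without TS3) to 0.87. Sign changes in these came without FT1, FT2, FT4, CT1 or CT5 (miR-181c in FT, 0.040, 0.081, 0.030, 0.012 and 0.065) and without CS4 (miR-181b+miR-181d in plasma, -0.15).

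No source used here says that sample numbers pair samples within a comparison, and same-numbered samples correlated between -0.389 and 0.389, so the block was not taken as a pairing. With it miR-181c passed in plasma (-1.74, adjusted p = 0.0188), and plasma calls over all miRNAs went from 0 to 90. Calls in M against CT went from 82 to 151 with TMM, 163 with DESeq2 size factors, 124 with DESeq2, 152 with negatives subtracted, 504 with housekeeping scaling, 47 with the methods' t-test, 48 with ligation controls and 52 with groups fitted together, and to 50 to 52 without CT1, CT3 or CT4. Calls in FT against CT ranged from 0 to 12 (without FT3), and in M against FT from 0 to 33 (without FT2), against 1 and 9. Counts of miR-181b+miR-181d and miR-181c near the negative controls, and of the whole family in plasma, limit what can be detected.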
